A study of Mus musculus with 12 samples.

Results

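The 40 genes described here encode the voltage-gated calcium and sodium channels of the mouse. They were taken from the 56941 genes of the count tables by name alone: every protein-coding gene whose symbol is Cacna, Cacnb or Cacng followed by a digit, or Scn followed by a number and then a or b. Of these, 20 encode a pore subunit (10 for calcium, 10 for sodium) and 20 encode an auxiliary subunit, namely 4 alpha2delta, 4 beta and 8 gamma subunits of calcium channels and 4 beta subunits of sodium channels. The filter on low counts kept 35 of the 40, 17 pore and 18 auxiliary subunits. The other 5, Cacna1f, Cacng1, Cacng6, Scn4a and Scn10a, had between 5 and 31 counts summed over the 12 libraries and were not tested.

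RNA was taken from the cerebellum of 12 mice at about 16 weeks of age, 3 in each of 4 groups. SCA1 mice carry a knock-in at the endogenous Atxn1 locus, with 154 CAG repeats on 1 copy of the gene and 2 on the other, so the expanded allele is under its own promoter in every cell that uses it. WT mice were their littermates. All groups shared the C57BL/6J background. The study used males and females, but the 4 Y-linked genes summed to 223 to 264 CPM in all 3 WT sedentary mice, whereas in mice 201 (WT exercise), 194 (SCA1 sedentary) and 55 and 122 (SCA1 exercise) they summed to 0.404 CPM or less. Sex was therefore uneven between the WT sedentary group and each group set against it. With Y-linked expression as a covariate over the 12 mice, no member was called in any comparison, and this covariate was not run without mice 16 and 55. Mice of the exercise groups lived alone with free access to a running wheel for 12 weeks from 4 weeks of age, while sedentary mice had no wheel and were housed together. Running and housing therefore cannot be told apart. The wheels had been taken away before behavioral testing, and tissue was collected after it. The WT sedentary group was mice 116, 117 and 192, the WT exercise group mice 121, 197 and 201, the SCA1 sedentary group mice 16, 194 and 195, and the SCA1 exercise group mice 55, 122 and 198. The question was what the SCA1 allele, exercise or their combination did to the transcript levels of these channels.

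In a voltage-gated channel, a large pore protein senses the membrane potential and lets ions pass, and smaller auxiliary proteins set how many channels reach the membrane and how they open and close. Purkinje cells, the output neurons of the cerebellar cortex and the cells most affected in SCA1, fire continuously. This firing rests on sodium channels that reopen during repolarization and on P/Q-type and T-type calcium channels. Several of the genes below are mutated in inherited ataxias of humans or in ataxic mouse strains. In RNA from whole tissue, fewer cells of a type and less RNA in each cell cannot be told apart.

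The libraries ranged from 55059800 to 69065600 read pairs, of which 20556802 to 32127508 were assigned to a gene on its own strand. All 4 groups entered 1 quasi-likelihood model in edgeR, p-values were adjusted over the 20341 genes tested by the method of Benjamini and Hochberg, and a gene was called at an adjusted p under 0.05. Values per mouse are in CPM, the read pairs of a gene scaled to the effective size of its library.

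A pair of libraries stood apart. In mice 16 (SCA1 sedentary) and 55 (SCA1 exercise), the 8 markers of the brainstem summed to 161 and 102 CPM, against 11.9 to 40.9 CPM in the other 10 mice. Hoxb5, a patterning gene of the caudal hindbrain, stood at 8.33 and 9.92 CPM, against 0 to 0.970 CPM. The 10 oligodendrocyte markers summed to 7338 and 5866 CPM, against 2637 to 4450 CPM, and the 10 granule cell markers to 3319 and 4254 CPM, against 5999 to 6704 CPM. Read pairs with several alignments made up 6.38% and 6.33%, against 2.08% to 3.46%. The share of read pairs that fell on no annotated exon of the counted strand, such as those from introns, was 39.3% and 44.1%, against 46.0% to 58.7%. Both mice were SCA1, 1 in each activity group, so comparisons that hold SCA1 mice are given over all mice and, for their counts and for most members described, also without these 2. The remaining SCA1 sedentary group then has 2 mice. Cerebellar markers were present in every library: the 15 Purkinje cell markers summed to 5849 CPM in mouse 16, 9484 CPM in mouse 55 and 7373 to 10736 CPM in the others. Every SCA1 mouse lay below the lowest WT mouse, mouse 116 with 9530 CPM. Over both activity groups and all 12 mice, all 15 markers were lower in SCA1 mice at an unadjusted p under 0.05 (edgeR, background 4.25%). The part of this difference in the members' values was not tested. As a reference point, the Purkinje marker Calb1 stood at 615 ± 65.2 CPM in sedentary and 562 ± 23.0 CPM in exercised WT mice, and at 349 ± 39.6 CPM in sedentary and 467 ± 24.3 CPM in exercised SCA1 mice (SD, n = 3). Atxn1 itself stood at 153 ± 8.28, 166 ± 6.05, 172 ± 17.9 and 175 ± 24.3 CPM (SD, n = 3) in the same order.

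Among the calcium channel pores, Cacna1a, the P/Q-type pore, and Cacna1g, a T-type pore, had the highest levels per length. Divided by the length of all annotated exons, their means over the 12 mice were 55.5 ± 12.9 and 42.9 ± 4.62 CPM per kb (SD, n = 12). The ranges of these neighbours overlapped, whereas Cacna1g lay above the R-type pore Cacna1e in every mouse. Cacna1e averaged 22.8 CPM per kb, the T-type pore Cacna1i 19.2, the N-type pore Cacna1b 18.3 and the L-type pores Cacna1c and Cacna1d 13.2 and 11.1, and each of these overlapped the next in the order. The other T-type pore, Cacna1h, averaged 0.813 CPM per kb, and the L-type pore of skeletal muscle, Cacna1s, 0.0831 CPM per kb. Cacna1f, the L-type pore of the retina, averaged 0.0112 CPM per kb. The order of the middle genes depended on the length used. Per kb of the canonical transcript, Cacna1c moved to the third place with 44.4 CPM, behind Cacna1a with 117 and Cacna1g with 53.2 and ahead of Cacna1e with 38.1.

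The sodium channel pores divided into 3 abundant and 7 rare genes. Scn2a averaged 61.2 CPM per kb of exons, Scn8a, the main pore of Purkinje cell axons, 35.1, and Scn1a, whose loss causes severe childhood epilepsy, 30.8. Scn2a lay above Scn8a in every mouse, while Scn8a and Scn1a overlapped. Next came Scn3a, a pore of the embryonic brain, with 0.759 CPM per kb, below the lowest value of Scn1a. Scn7a, a sodium-sensing relative of the family, averaged 0.183 CPM per kb, and the sensory neuron pores Scn9a and Scn11a averaged 0.119 and 0.0834. Scn4a, the pore of skeletal muscle, and Scn10a, of sensory neurons, averaged 0.00578 and 0.00154 CPM per kb.

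In each auxiliary class, 1 or 2 genes led. Cacna2d2, the alpha2delta subunit that is lost in the ataxic ducky mouse, averaged 29.9 CPM per kb of exons, against 6.09 for Cacna2d3, 5.09 for Cacna2d1 and 0.307 for Cacna2d4. Cacnb4, the beta subunit that is lost in the ataxic lethargic mouse, averaged 49.2, against 7.79 for Cacnb3, 5.44 for Cacnb1 and 3.46 for Cacnb2. Both leaders lay above every other member of their class in all 12 mice. Most gamma subunits are better known as TARPs, which escort AMPA-type glutamate receptors to synapses. Among them Cacng7 averaged 40.1 CPM per kb and Cacng2, the stargazin gene that is mutated in the ataxic stargazer mouse, 27.5, followed by Cacng5 with 9.73, Cacng4 with 8.83, Cacng8 with 4.65 and Cacng3 with 1.64. Cacng7 lay above Cacng2 in every mouse, and Cacng2 above Cacng5. Cacng1, the gamma subunit of skeletal muscle, and Cacng6 averaged 0.0219 and 0.0107 CPM per kb. Among the sodium channel beta subunits, Scn2b averaged 79.3 CPM per kb, Scn4b 20.8 and Scn3b 0.885, with no overlap between neighbours in that order.

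**Figure D1:**
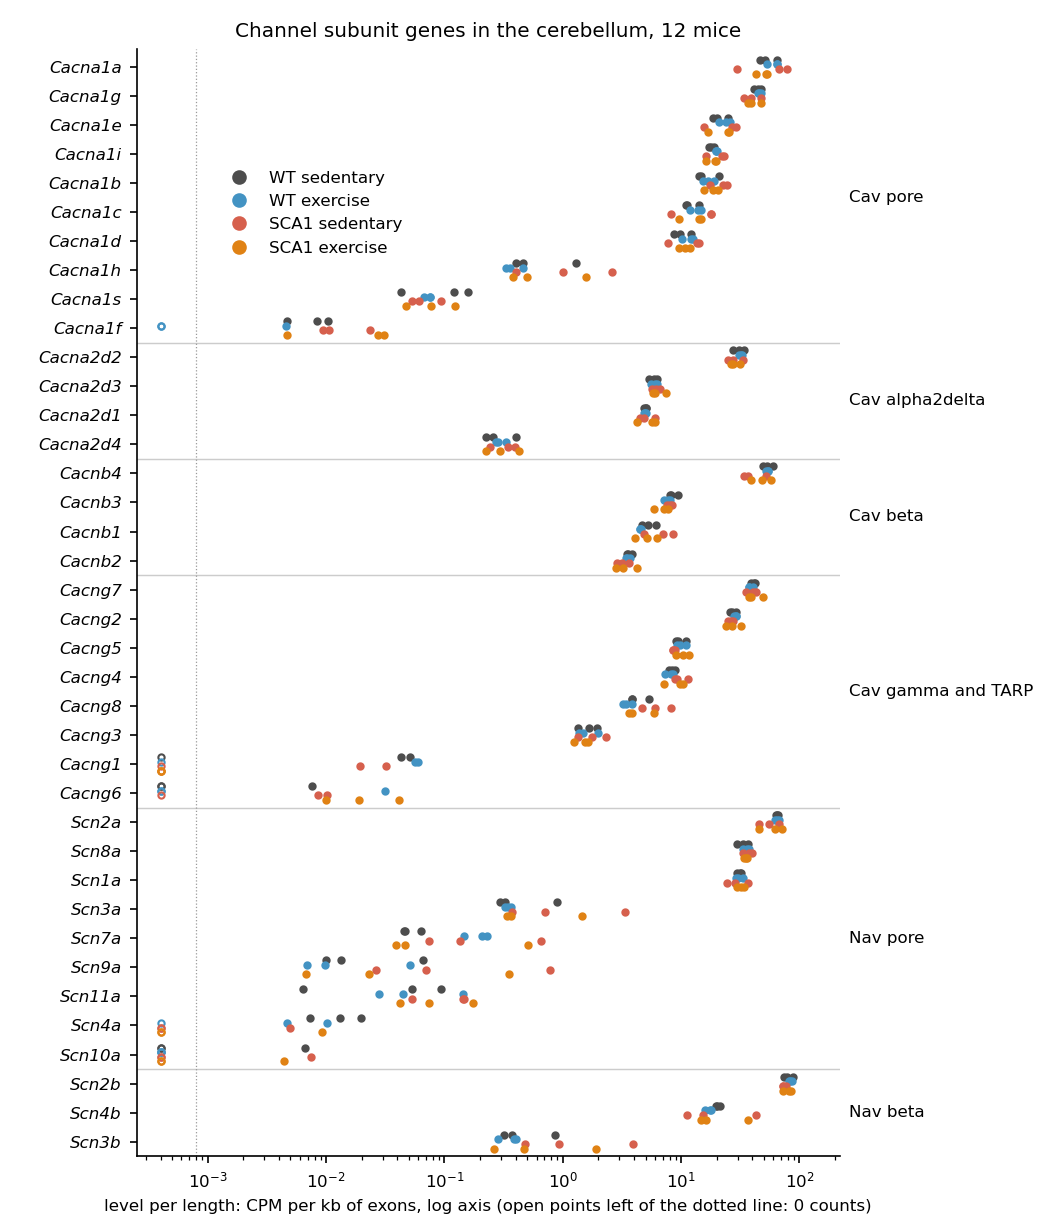
Level per length of 38 of the 40 genes on a log axis, in CPM per kb of annotated exons; each point is 1 mouse, coloured by group, and open points left of the dotted line are libraries with 0 counts. The genes are ordered by mean level within each class, and most abundant genes lie in narrow bands of all 12 mice while rare ones such as Scn9a, Scn3a and Scn3b are spread widely.

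As a share of the summed level per length of the 10 sodium pores, Scn2a made up 47.5%, Scn8a 27.4% and Scn1a 24.1% (means of 12 mice). Among the calcium pores, Cacna1a made up 29.8% and Cacna1g 23.6%, followed by Cacna1e with 12.3%, Cacna1i with 10.6%, Cacna1b, Cacna1c with 7.13% and Cacna1d with 6.01%. With the canonical transcript length, Cacna1a made up 36.6%, Cacna1g 17.2%, Cacna1c 13.9% and Cacna1b 5.96%. The makeup of WT sedentary and SCA1 sedentary mice was close in the means and wider in spread in the latter. Scn2a made up 50.04% ± 1.60 in WT sedentary and 44.5% ± 6.40 in SCA1 sedentary mice (SD, n = 3), and Cacna1a 30.3% ± 1.39 and 29.1% ± 5.99. These shares were not tested, since they are scores over the members.

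**Figure D2:**
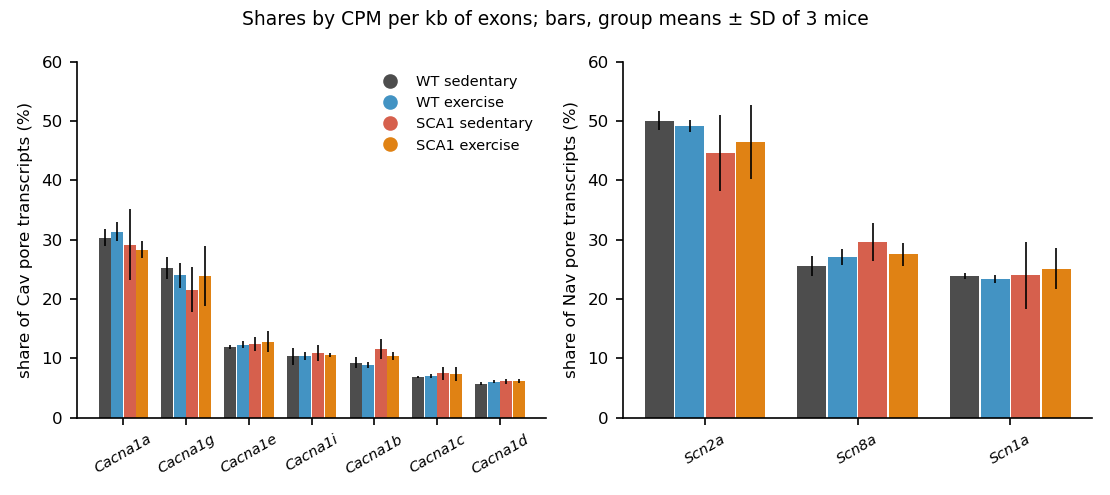
Share of each pore gene in the summed CPM per kb of the calcium pores (left) and the sodium pores (right), in percent; bars are group means and error bars the SD of 3 mice. The 7 calcium and 3 sodium pores that make up nearly all of each family kept the same leading gene in all 4 groups, and the error bars of SCA1 sedentary mice are the widest of the 4 groups for Scn2a, Scn1a and Cacna1a.

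In SCA1 sedentary against WT sedentary mice, none of the 35 members tested was called over the 12 libraries by edgeR, as against 0.0344% of all genes tested, and none by DESeq2. At an unadjusted p under 0.05, edgeR had 6 members higher (background 5.55%) and 1 lower (background 4.55%), and DESeq2 had 6 in all. The members higher included Scn7a, Scn9a, Scn3b, Cacng8 and Cacna1b, and the member lower was Cacnb4. Across members the median log2 fold change (log2FC) was 0.15, beside 0.02 for all genes. Over both activity groups, SCA1 against WT again had no member called (background 0.143%) by either tool, with 5 members higher (background 5.56%) and 1 lower (background 4.25%) at an unadjusted p under 0.05 in edgeR and 7 in DESeq2. Scn9a, Scn3b, Cacng8 and Scn3a were among the 5 with the lowest p, and all 4 had a positive log2FC.

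For each of these 4 genes mouse 16 held the highest value of the 12 mice. Scn3a was at 4.32, 3.97 and 11.96 CPM in sedentary and 4.64, 4.38 and 4.85 in exercised WT mice, and at 44.6, 9.39 and 4.96 in sedentary and 19.4, 4.55 and 4.93 in exercised SCA1 mice. Mice 16 and 55, which come first in the last 2 groups, held the highest values, and the remaining SCA1 mice lay within the range of WT mice. Over both activity groups its log2FC was 1.30 ± 0.54 (SE, adjusted p = 0.472, edgeR), and without mice 16 and 55 it was 0.08 ± 0.28.

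Scn3b, a sodium channel beta subunit, was at 2.27, 2.65 and 6.15 CPM in WT sedentary and 2.89, 2.04 and 2.79 in WT exercise mice. It was at 28.3, 6.67 and 3.46 CPM in sedentary and 13.7, 1.88 and 3.39 in exercised SCA1 mice. The same 2 mice were again the highest of all 12, and mouse 192 was the highest of the WT mice for both Scn3a and Scn3b. In mouse 192 the 8 midbrain and thalamus markers summed to 43.4 CPM, the most among the mice other than 16. The log2FC of Scn3b over both activity groups was 1.55 ± 0.56 (SE, adjusted p = 0.406, edgeR), and 0.26 ± 0.29 without mice 16 and 55.

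Scn9a was counted 4, 4 and 22 times in WT sedentary, 2, 3 and 16 times in WT exercise, 282, 21 and 7 times in SCA1 sedentary and 113, 7 and 2 times in SCA1 exercise libraries. Most of these counts came from mice 16 and 55. The fitted log2FC over both activity groups was 2.90 ± 1.03 (SE, adjusted p = 0.389, edgeR), and 0.08 ± 0.72 without these 2 mice. At counts this low it depends on the prior count.

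Cacng8, a TARP, was at 11.3, 11.4 and 15.7 CPM in sedentary and 11.5, 9.64 and 10.2 in exercised WT mice, and at 24.3, 17.7 and 13.9 in sedentary and 17.5, 10.8 and 11.5 in exercised SCA1 mice. It was highest in the sedentary SCA1 group, where mouse 195 still lay below mouse 192 of the WT group. Its log2FC over both activity groups was 0.44 ± 0.17 (SE, adjusted p = 0.416, edgeR; exact permutation p = 0.05), and without mice 16 and 55 it was 0.21 ± 0.12 (adjusted p = 0.523). Cacna1h was likewise at 28.4 CPM in mouse 16 and 17.1 CPM in mouse 55. It was at 5.05, 4.44 and 14.3 CPM in sedentary and 3.64, 5.01 and 3.96 in exercised WT mice, and the other SCA1 mice lay between 4.17 and 10.96 CPM.

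In all, 10 of the 35 members (28.6%) were higher in mice 16 and 55 than in each of the other 10 mice, as against 17.1% of all genes tested. They were Cacna1h, Cacna2d3, Cacng4, Cacng7, Scn1a, Scn3a, Scn3b, Scn4b, Scn7a and Scn9a. Against the median of the other mice, Scn9a stood at 43.0 and 19.4 times in mice 16 and 55, Scn3b at 9.96 and 4.81 times and Scn4b at 2.55 and 2.18 times. A further 5 members (14.3%, all genes 13.9%) were lower in both than in each of the others, namely Cacna1a, Cacna1c, Cacna1e, Cacna1i and Scn2a, all of them pores. The parts of the tissue makeup and of the RNA integrity of these libraries in the members' values were not tested.

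**Figure D3:**
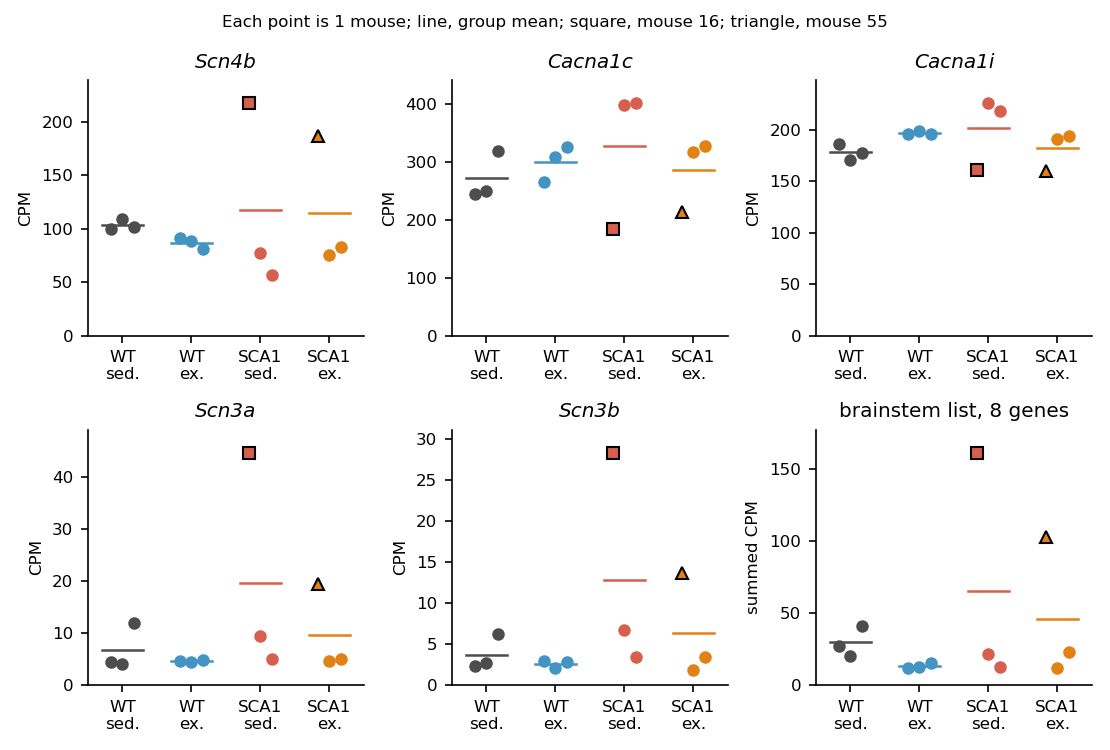
CPM of 5 members and the summed CPM of the 8 brainstem markers in each mouse, by group; lines are group means, the square is mouse 16 and the triangle mouse 55. Both marked mice are the highest for Scn4b, Scn3a, Scn3b and the brainstem list and the lowest for Cacna1c and Cacna1i.

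Without mice 16 and 55, 3 of the 34 members then tested were called in SCA1 sedentary against WT sedentary mice, beside 1.24% of the 20494 genes tested: Scn4b fell, and Cacna1c and Cacna1i rose. Scn4b encodes a sodium channel beta subunit whose intracellular end has been proposed as the blocking particle of the resurgent sodium current of Purkinje cells. It was at 99.8, 109 and 102 CPM in sedentary and 91.1, 88.3 and 81.4 in exercised WT mice, and at 218, 77.5 and 56.6 in sedentary and 186, 75.1 and 82.7 in exercised SCA1 mice. Mice 16 and 55 were far above every WT mouse, and the other SCA1 sedentary mice lay below every WT mouse. Over the 12 mice its log2FC was 0.18 ± 0.43 (SE, adjusted p = 0.919). Without the 2 mice it was -0.61 ± 0.12 (adjusted p = 0.0300, edgeR), and over both activity groups it was -0.37 ± 0.08 (adjusted p = 0.0460, beside 1.33% of all genes called), with an exact permutation p of 0.02. Leaving out mouse 16 alone already turned the sign of the log2FC of Scn4b, to -0.63 in sedentary mice and -0.11 over both activity groups.

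Cacna1c encodes the pore of the main L-type calcium channel of brain and heart. It was at 245, 250 and 319 CPM in sedentary and 265, 309 and 326 in exercised WT mice, and at 183, 397 and 401 in sedentary and 213, 317 and 327 in exercised SCA1 mice. Mice 16 and 55 were the lowest of all, and mice 194 and 195 the highest. Its log2FC was 0.27 ± 0.26 over the 12 mice (SE, adjusted p = 0.750) and 0.58 ± 0.11 without mice 16 and 55 (adjusted p = 0.0317, edgeR). Cacna1i, the T-type pore of thalamic neurons and other cells, was at 187, 171 and 178 CPM in sedentary and 196, 199 and 196 in exercised WT mice, and at 161, 226 and 218 in sedentary and 160, 191 and 195 in exercised SCA1 mice. Its log2FC was 0.18 ± 0.12 over the 12 mice (SE, adjusted p = 0.664) and 0.34 ± 0.07 without the 2 mice (adjusted p = 0.0424).

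At an unadjusted p under 0.05, the fit of 10 mice had 8 members higher (background 10.7%) and 3 lower (background 9.51%) in SCA1 sedentary mice. All 8 were pores, Cacna1a, Cacna1b, Cacna1c, Cacna1d, Cacna1e, Cacna1i, Scn7a and Scn8a, and all 3 lower were auxiliary, Cacnb2 and Scn4b among them. The 6 calcium pores among them comprise the 5 high-voltage-activated pores that were abundant here and 1 T-type pore, and their log2FC lay between 0.34 for Cacna1i and 0.58 for Cacna1c. Cacna1a was at 883, 986 and 1232 CPM in sedentary and 1015, 1228 and 1227 in exercised WT mice, and at 562, 1488 and 1273 in sedentary and 812, 1009 and 1003 in exercised SCA1 mice. Mouse 16 was the lowest and mouse 194 the highest of all 12. Its log2FC was 0.44 ± 0.13 without mice 16 and 55 (SE, adjusted p = 0.0968). Groups did not overlap for 16 of the members, where 2 mice are set against 3 (background 31.3%).

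Over both activity groups, the fit of 10 mice had 6 members higher (background 6.16%) and 4 lower (background 5.57%) at an unadjusted p under 0.05. Only for Cacnb2, of the members tested, did the 4 SCA1 mice not overlap the 6 WT mice (background 3.15%). Cacnb2, a beta subunit best known from heart muscle, was at 52.0, 56.6 and 51.0 CPM in WT sedentary, 50.5, 54.0 and 51.0 in WT exercise mice. Mice 194 and 195 were at 42.3 and 46.3 CPM and mice 122 and 198 at 47.2 and 41.2 CPM. These 4 SCA1 mice lay below the lowest WT mouse, while mice 16 and 55 were at 53.3 and 62.4 CPM. Its log2FC was -0.23 ± 0.07 (SE, adjusted p = 0.174, edgeR). The exact permutation p of 0.01 is the smallest these mice can give and follows from the lack of overlap, so it adds nothing to it. Cacnb2 was picked after its values were seen, and a single member without overlap is close to the background share.

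Each of these 3 calls in sedentary mice was lost in some fits without 1 further mouse. When each of the 10 mice was left out in turn, Scn4b was called in 5 of 10 fits (adjusted p between 0.00352 and 0.0925), Cacna1c in 4 of 10 (between 0.00464 and 0.135) and Cacna1i in 2 of 10 (between 0.0318 and 0.123), and each kept its sign in all 10. Over both activity groups, the call of Scn4b was lost without mouse 116, 117, 121, 122, 195, 197, 198 or 201. Its log2FC in those fits lay between -0.42 (without mouse 198) and -0.28 (without mouse 195). In both remaining SCA1 sedentary libraries the share of read pairs outside annotated exons was above that of each WT sedentary library. It was 52.7% and 58.7%, against 46.0%, 50.5% and 51.8%, and the median of the 10 mice was 52.5%. With this share as a covariate in the fit of 10 mice no member was called (backgrounds 0.332% in sedentary mice and 1.05% over both activity groups), and the adjusted p was 0.252 for Scn4b, 0.295 for Cacna1c and 0.113 for Cacna1i. The log2FC of these genes were then -0.47 ± 0.14, 0.42 ± 0.14 and 0.38 ± 0.09, with the sign they had before, and that of Cacna1i was not smaller.

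**Figure D4:**
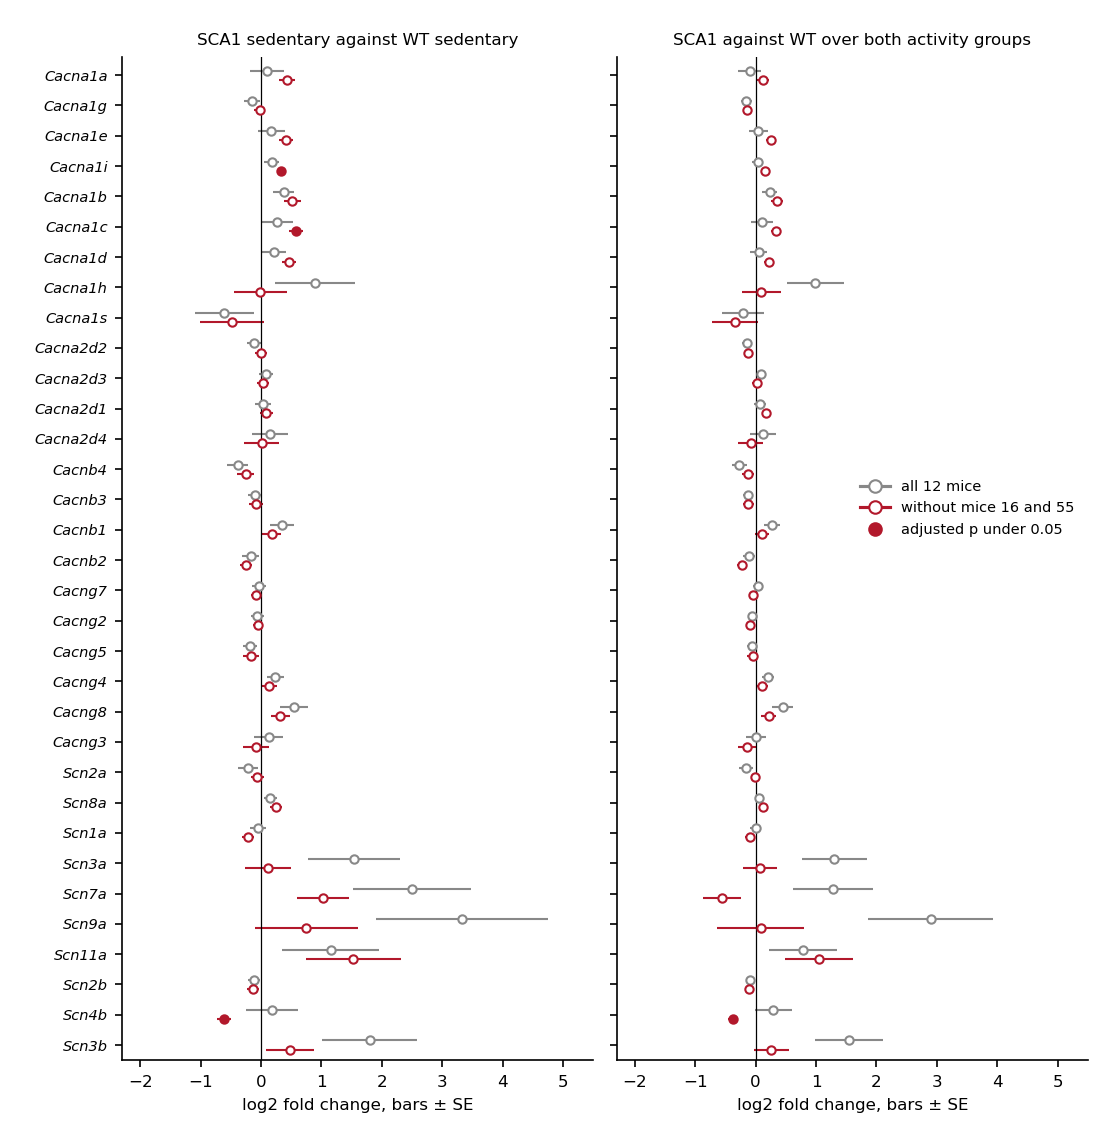
The log2 fold change of 33 of the 35 tested members in SCA1 sedentary against WT sedentary mice (left) and in SCA1 against WT over both activity groups (right), over all 12 mice in grey and without mice 16 and 55 in red; bars are ± SE and filled points have an adjusted p under 0.05. The red points of Scn3a, Scn3b, Scn9a and Cacna1h lie near 0 or much closer to it than the grey ones, and Scn4b lies on the other side of 0.

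For 2 of the 3 called genes, Scn4b and Cacna1i, the 250 bases before the annotated start lie outside every other transcript of the gene, and they are printed to show the promoter sequence of genes that moved, as it stands in GRCm39. The gene Scn4b spans chr9:45049595-45065452 on the plus strand and Cacna1i chr15:80171436-80282482 on the plus strand. The windows are chr9:45049345-45049594, with 57.2% GC and 8 CpG, and chr15:80171186-80171435, with 63.2% GC and 16 CpG. Capitals mark a GC box.

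Scn4b: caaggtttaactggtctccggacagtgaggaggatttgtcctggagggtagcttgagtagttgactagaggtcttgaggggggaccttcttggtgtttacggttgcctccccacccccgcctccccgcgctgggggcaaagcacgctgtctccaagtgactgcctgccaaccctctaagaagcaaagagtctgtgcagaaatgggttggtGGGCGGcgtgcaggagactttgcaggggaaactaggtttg
Cacna1i: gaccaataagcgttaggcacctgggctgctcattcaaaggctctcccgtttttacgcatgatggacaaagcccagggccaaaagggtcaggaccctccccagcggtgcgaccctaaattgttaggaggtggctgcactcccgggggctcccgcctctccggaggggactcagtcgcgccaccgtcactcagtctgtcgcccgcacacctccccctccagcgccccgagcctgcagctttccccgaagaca

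On either strand, the window of Scn4b held the GC box GGGCGG, starting at -40 from the start site, and none of the other motifs searched, and the window of Cacna1i held none of them. The GC box was in 36.3% of the 21757 promoters of protein-coding genes and in 19 of the 40 members. The TATA box TATAAA was in 11.9% of promoters and in 1 member, Scn2a. No member held the cAMP response element TGACGTCA (1.70% of promoters), the octamers of Capicua, the repressor that binds ataxin-1, TGAATGAA (1.22%) and TGAATGGA (0.915%), the ROR element TAGGTCA (2.16%) or the core TTCAGCACC of the REST element (0.267%). The GC box overlaps no other of these motifs in the Scn4b window. A match of letters describes the sequence and is not evidence of a site in use.

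The remaining members known for their part in Purkinje cells or ataxia were not called between genotypes, with or without mice 16 and 55. Cacna1g was at 431, 464 and 485 CPM in sedentary and 489, 466 and 474 in exercised WT mice, and at 352, 487 and 406 in sedentary and 489, 402 and 381 in exercised SCA1 mice. The log2FC over both activity groups was -0.16 ± 0.09 (SE, adjusted p = 0.588) and -0.15 ± 0.07 without mice 16 and 55 (adjusted p = 0.410). The genotypes overlapped, among exercised mice through mouse 55 alone. Without it, both exercised SCA1 mice lay below the 3 exercised WT mice (log2FC -0.27 ± 0.10 in the fit of 10 mice, adjusted p = 0.488). Scn8a was at 470, 522 and 579, 521, 592 and 574, 525, 631 and 594, and 536, 564 and 553 CPM in the 4 groups in the same order. The highest mouse stood at 1.34 times the lowest, and the log2FC in sedentary mice was 0.16 ± 0.11 (SE, adjusted p = 0.665), and 0.25 ± 0.10 without mice 16 and 55 (adjusted p = 0.183).

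Scn2a was at 825, 863 and 840 CPM in WT sedentary and 840, 871 and 811 in WT exercise mice, and at 592, 715 and 879 in SCA1 sedentary and 594, 931 and 801 in SCA1 exercise mice. The 6 WT mice were within a narrow band, and mice 16 and 55 were well below it. Mice 194 and 198 also lay below every WT mouse, while mice 195 and 122 lay above every WT mouse. The log2FC over both activity groups was -0.16 ± 0.12 (SE, adjusted p = 0.660) and -0.00 ± 0.07 without the 2 mice. Cacnb4 was at 484, 539 and 448 CPM in sedentary and 489, 496 and 474 in exercised WT mice, and at 312, 334 and 477 in sedentary and 354, 524 and 441 in exercised SCA1 mice. Mice 16, 194 and 55 were the lowest. Its log2FC was -0.39 ± 0.17 in sedentary mice (SE, adjusted p = 0.477) and -0.27 ± 0.12 over both activity groups (SE, adjusted p = 0.502), and without mice 16 and 55 -0.26 ± 0.14 and -0.13 ± 0.10.

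Cacna2d2 was at 220, 247 and 268 CPM in sedentary and 247, 261 and 257 in exercised WT mice, and at 196, 265 and 219 in sedentary and 249, 217 and 210 in exercised SCA1 mice. Cacng2 was at 149, 168 and 154, 166, 165 and 161, 152, 156 and 143, and 183, 155 and 138 CPM in that order, and Cacng7 at 162, 166 and 153, 162, 148 and 147, 171, 160 and 139, and 194, 154 and 148 CPM. For these 3 genes the genotypes overlapped in sedentary and in exercise mice, and the adjusted p over both activity groups was at least 0.598. The overlap of Cacna2d2 and Cacng2 in exercise mice came from mouse 55, and the other exercised SCA1 mice lay below all exercised WT mice. Without mice 16 and 55 the log2FC between exercised groups was -0.24 ± 0.10 for Cacna2d2 and -0.15 ± 0.09 for Cacng2 (SE, adjusted p = 0.656 and adjusted p = 0.824).

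The other 12 members tested are given by their range over the 12 mice. Among the pores, Cacna1b ranged from 141 to 243 CPM, Cacna1d from 117 to 213, Cacna1e from 402 to 745 and Scn1a from 282 to 427. The rare pores Cacna1s and Scn11a ranged from 0.347 to 1.28 and from 0.0377 to 1.03 CPM. Among the auxiliary genes, Scn2b, the beta subunit that is bound to the pore by a disulfide bond, had the narrowest relative range of all members, 335 to 407 CPM. Cacna2d1, a target of gabapentin, ranged from 93.9 to 134 CPM, Cacna2d3 from 54.3 to 75.0, Cacna2d4 from 2.14 to 4.05, Cacng3 from 4.88 to 9.18 and Cacng4 from 29.5 to 47.2. For these 12 the adjusted p in SCA1 against WT over both activity groups was at least 0.533.

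Exercise in WT mice gave no call among the members with edgeR or DESeq2 (background 0% over the 12 libraries). No member had an unadjusted p under 0.05 in edgeR (background 4.69%), and DESeq2 had 2. Without mice 16 and 55, which belong to neither WT group, still none was called (background 0.317%). In that fit 5 members had an unadjusted p under 0.05 (background 13.3%). Over the 12 mice, Scn7a and Cacnb3 were among the 3 with the lowest p.

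Scn7a was at 0.347, 0.470 and 0.340 CPM in WT sedentary and 1.53, 1.08 and 1.70 in WT exercise mice, and the groups did not overlap. Scn7a had few counts, 9 to 11 in WT sedentary and 26 to 42 in WT exercise libraries. In SCA1 libraries it had 13 to 139 when sedentary and 7 to 96 with exercise. Its log2FC was 1.90 ± 0.99 over the 12 mice (SE, adjusted p = 0.958) and 1.90 ± 0.37 without mice 16 and 55 (adjusted p = 0.0514, edgeR), and the exact permutation p was 0.1, the smallest that 3 mice against 3 can give. In SCA1 mice it was at 4.91, 0.552 and 1.01 CPM when sedentary and 3.81, 0.292 and 0.343 with exercise, where mice 16 and 55 come first. In all, the groups did not overlap for 5 of the 35 members, which included Cacna1i and Scn7a, higher with exercise, and Cacnb1 and Scn4b, lower with exercise (background 21.2%).

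Exercise in SCA1 mice gave no call either, with edgeR or DESeq2 (background 0%, and also 0% without mice 16 and 55). In edgeR 1 member, Cacng5, was higher at an unadjusted p under 0.05 (background 1.19%), and DESeq2 had 2. Cacng5, a TARP, was at 37.7, 37.2 and 38.97 CPM in SCA1 sedentary and 45.3, 50.9 and 39.8 in SCA1 exercise mice, against 41.4, 48.0 and 39.9 in WT sedentary and 48.0, 42.9 and 40.4 in WT exercise mice. All 3 SCA1 sedentary mice lay below the 3 exercised SCA1 mice and below the 3 WT sedentary mice. The log2FC with exercise was 0.26 ± 0.12 (SE, adjusted p = 0.999, edgeR; exact permutation p = 0.1). It was the only member without overlap in this comparison over the 12 mice (background 4.5%). Mice 16 and 55 stand 1 in each of these groups. Without them 6 members had an unadjusted p under 0.05 (background 8.79%), Cacna1a, Cacna1c, Cacna1i, Cacnb1, Cacng8 and Scn7a, all with a negative log2FC and an adjusted p of 0.565. With 2 mice against 2, 17 members then did not overlap (background 36.5%). Cacng5, Scn1a and Scn2b lay higher with exercise, and 14 lay lower, among them the 7 abundant calcium pores. Between SCA1 and WT sedentary mice, 4 of 35 members did not overlap, which included Cacng4 and Scn7a, higher in SCA1 mice, and Cacng5, lower in SCA1 mice (background 11.4%).

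Between the exercised groups no member was called in edgeR or DESeq2 (background 0%, and 0.181% without mice 16 and 55), and none had an unadjusted p under 0.05 in either tool (background 2.93%). In the fit of 10 mice 4 members did (background 6.88%). Cacna2d1 had a log2FC of 0.26 ± 0.10, Cacna1g and Cacna2d2 had the values given above, and Scn7a had -2.15 ± 0.45 (SE, adjusted p = 0.0967, edgeR). Cacna1a and Cacna1i were lower in each exercised SCA1 mouse than in each exercised WT mouse (2 of 35 members, background 14.2%), and without mice 16 and 55 the groups did not overlap for 8 members (background 27.3%). The log2FC were -0.30 ± 0.27 for Cacna1a and -0.11 ± 0.12 for Cacna1i (SE, adjusted p = 0.960 for both). Over both activity groups the ranges of SCA1 and WT mice overlapped for all 35 members (background 1.17%), as did those of exercise and sedentary mice over both genotypes (background 0.128%).

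Over both genotypes, exercise again gave no call in edgeR or DESeq2 (background 0%, with or without mice 16 and 55), and 3 members, Cacng8, Cacnb1 and Cacnb3, were lower at an unadjusted p under 0.05 in edgeR (background 1.39%), as many as in DESeq2. Without mice 16 and 55, 5 members had an unadjusted p under 0.05 in edgeR, counting either direction (background 6.48%). Cacnb1 is the beta subunit of skeletal muscle and is also used in brain, and Cacnb3 is a beta subunit of neurons. Cacnb1 was at 26.8, 30.1 and 34.9 CPM in sedentary and 26.2, 25.7 and 25.8 in exercised WT mice, and at 48.9, 40.4 and 27.9 in sedentary and 35.8, 23.3 and 29.4 in exercised SCA1 mice. Its WT exercise values were close together, and its highest values were those of mice 16, 194 and 55. Cacnb3 was at 41.8, 40.4 and 47.2, 40.7, 35.8 and 39.4, 41.0, 42.1 and 38.2, and 35.9, 29.8 and 39.4 CPM in that order. Over both genotypes the log2FC were -0.39 ± 0.17 for Cacng8, -0.32 ± 0.14 for Cacnb1 and -0.18 ± 0.08 for Cacnb3 (SE, adjusted p = 0.945 for each, edgeR).

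The interaction of genotype and exercise asks whether exercise changed SCA1 mice differently from WT mice. No member was called in edgeR or DESeq2 (background 0%, with or without mice 16 and 55), and none had an unadjusted p under 0.05 in edgeR (background 3.78%), while DESeq2 had 1. The lowest p were those of Scn7a, Cacna1i and Cacng5. Without mice 16 and 55, 6 members had an unadjusted p under 0.05 in edgeR (background 14.8%). In that fit the interaction of Scn7a was -3.18 ± 0.62 on the log2 scale (SE, adjusted p = 0.116).

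Part of the variation between mice followed a property of the libraries. Over the 12 mice, the log2 CPM of 14 of the 35 members was correlated with the share of read pairs outside annotated exons (permutation test of Pearson's r, 100000 permutations, adjusted p under 0.05 over all genes tested). This was 40.0% of the members, close to the background of 34.7% of all genes. Among the calcium pores Cacna1e had the highest coefficient (r = 0.91, rho = 0.85, permutation adjusted p = 0.00134), with r = 0.86 for Cacna1d, 0.86 for Cacna1c, 0.84 for Cacna1a and 0.75 for Cacna1i, whereas Cacna1h had r = -0.74. Scn4b had r = -0.91 and rho = -0.87 (permutation adjusted p = 0.00156) and Cacng7 r = -0.80 and rho = -0.84 (permutation adjusted p = 0.00996). Without mice 16 and 55, the 2 farthest from the median share, r was 0.77 for Cacna1e, 0.74 for Cacna1d, 0.66 for Cacna1c, 0.56 for Cacna1a, 0.47 for Cacna1i, -0.72 for Scn4b, -0.77 for Cacng7 and -0.63 for Cacng3. For the other 6 of the 14, Scn3a, Scn3b, Cacna1h, Cacnb1, Cacng8 and Scn2a, r then lay between -0.28 and 0.27, so their relation rested on these 2 mice. The median r was 0.75 over the 9 calcium pores tested, -0.49 over the 8 sodium pores, -0.49 over the 18 auxiliary subunits and -0.01 over all genes tested.

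**Figure D5:**
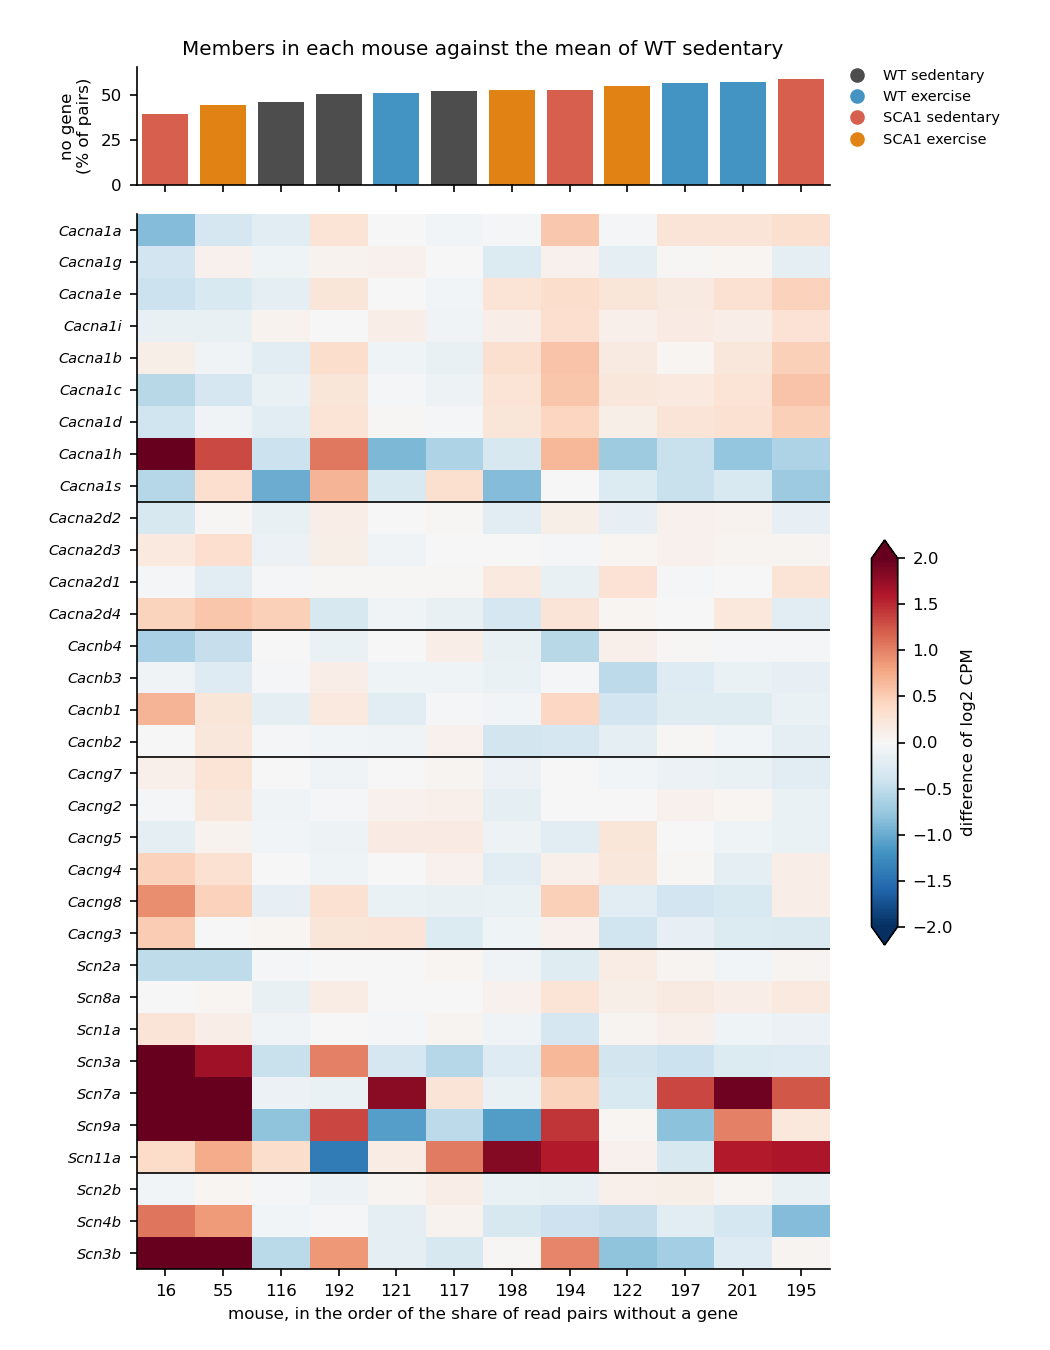
Difference of the log2 CPM of 33 of the 35 tested members from the mean of WT sedentary mice, on a colour scale that ends at 2 in either direction, with mice ordered by the share of read pairs without a gene (bars above, in percent of pairs, coloured by group). Cacna1a, Cacna1c, Cacna1d and Cacna1e pass from blue at the left to red at the right while Scn4b passes from red to blue, and Scn3a, Scn3b, Scn7a and Scn9a are darkest in mice 16 and 55.

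The proteins that anchor, modulate or scaffold these channels were summarised by a list of 34 genes, among them ankyrins, intracellular fibroblast growth factors, calmodulins, STAC and RGK proteins and active-zone scaffolds. The list was wider than these partners. It also held Nalcn, the pore of the separate sodium leak channel, with genes of its complex, and Dpp6, an auxiliary gene of potassium channels. None of the 34 was called over the 12 mice in any of the 7 comparisons in edgeR. In SCA1 against WT over both activity groups, 1 was higher (background 5.56%) and 3 were lower (background 4.25%) at an unadjusted p under 0.05. Stac, which holds L-type calcium channels at the membrane and slows their inactivation, was at 14.1, 16.4 and 15.8 CPM in sedentary and 15.2, 13.7 and 13.3 in exercised WT mice, and at 9.67, 11.5 and 8.56 in sedentary and 12.7, 10.3 and 10.1 in exercised SCA1 mice. Each of the 6 SCA1 mice lay below each of the 6 WT mice. Its log2FC was -0.49 ± 0.11 (SE, adjusted p = 0.120, edgeR) and, without mice 16 and 55, it fell with a log2FC of -0.53 ± 0.10 (adjusted p = 0.0229), the only gene of the 33 of this list tested that was called there (all genes 1.33%). Calm2, a calmodulin gene, had a log2FC of -0.25 ± 0.08 (adjusted p = 0.371). Fgf13, a cytoplasmic partner of sodium channels, had a log2FC of 0.44 ± 0.19 (adjusted p = 0.487), and 0.15 without the 2 mice.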

How the data were processed

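RNA of the cerebellum was sequenced from 12 mice, 3 in each of 4 groups named by the sample labels. Libraries were depleted of ribosomal RNA and kept strand. The authors checked reads with FastQC 0.11.9, trimmed those with much adapter with fastp 0.24.0 and aligned them to GRCm39 with STAR 2.7.10a, per the submitters' processing notes. They deposited the count tables that STAR wrote, raw counts of read pairs per gene without normalization. The annotation release is not given in the sources used here. RNA integrity was lower in 2 libraries, which were prepared with a shorter fragmentation and fewer cycles of amplification. The sources used here do not identify these 2 libraries by mouse.

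The reverse-strand counts (20556802 to 32127508 per library) were analysed in R 4.3.3 with filterByExpr, TMM and the quasi-likelihood test of edgeR 4.0.16, in 1 model of the 4 groups. This left 20341 of 56941 genes. CPM on TMM library sizes, log2 CPM with a prior count of 2 and CPM per kb of exons were computed here from the deposited counts. Symbols and lengths are from GENCODE M39, in which 56323 genes matched by ID. Beside the fit, each gene had an exact permutation test (two-sided) of its log2 CPM, with a smallest p of 0.1 for 3 mice against 3 and 0.005 over both activity groups (0.01 with 4 SCA1 mice against 6 WT mice). Replicates are separate mice.

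Values in each mouse are given for members called in any comparison, those with the lowest p (5 in SCA1 against WT over both activity groups, 3 in each other comparison), the leader of each class, and Cacna1a, Cacna1g, Cacna2d2, Cacng2, Scn8a and Scn4b. Cacnb2 was added after its values were seen. Results of 2 members are not reported here and are left out of the figures, while counts over members include them. Of the channel partners, those called and the 3 with the lowest p are named. Members, marker lists and partner genes were chosen with earlier results of these data known. Alternatives were DESeq2 1.42.0, other size factors, no filter, unstranded counts, other covariates and leaving out mice. The code was tested on simulated data.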

Additional observations from a re-analysis of the deposited data

Results flagged for a closer look

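For Scn3b, Scn9a, Cacna1f and Cacng1, more counts lay on the strand opposite to the gene than on its own strand, in a column of the count tables that no comparison used. Over the 12 libraries, 52.0% of the counts of Scn3b, 93.4% of those of Scn9a and 95.7% of those of Cacna1f were on the opposite strand. For Cacng1 it was 68.75%, from 33 counts on the opposite strand and 15 on its own. Over all genes, the opposite strand held between 5.54% and 6.01% of the counts assigned to genes on either strand in each library. GENCODE M39 lists Gm47266 on the opposite strand within Scn3b, and Gm13629, Gm35265 and Gm55494 opposite to Scn9a. It lists no gene there for Cacna1f or Cacng1. Unstranded counts of these genes may therefore hold many opposite-strand reads, and the source of these reads was not tested.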

How the results depend on the processing

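No member was called in any of the 7 comparisons over the 12 mice, with DESeq2, RLE size factors, no filter, unstranded counts, the fold limit, covariates for the share of read pairs off exons, Y-linked expression or the range of mouse numbers, or when 1 mouse was left out. Without mice 16 and 55, 3 members were called in SCA1 sedentary against WT sedentary mice and 1 in SCA1 against WT over both activity groups, and 0 with the share off exons as a covariate. The share off exons as a covariate, the canonical length and leaving out 1 further mouse of the 10 were chosen after the data were seen. The log2FC of Scn4b in sedentary mice, 0.18, became -0.61 without mice 16 and 55, -0.51 with the range of mouse numbers (in which these 2 mice have a term of their own), -0.018 with the share off exons and -0.47 with both changes, and lay between -0.63 (without mouse 16) and 0.49 when 1 mouse was left out. Over both activity groups, 0.29 became -0.37, -0.37, -0.075 and -0.31 in that order, with a range from -0.11 (without mouse 16) to 0.44. In SCA1 exercise against WT exercise mice, Scn9a became -0.59 without the 2 mice, -0.29 with the range of mouse numbers and -0.42 with the share off exons and 10 mice, with a range from -0.59 (without mouse 55) to 3.86, and Scn3b became -0.012 with the range of mouse numbers and -0.018 with 10 mice and the share. Over both activity groups, the range of mouse numbers gave -0.032 for Scn3a and -0.12 for Scn9a, 10 mice with the share gave -0.11 for Scn9a, and Cacna1i lay between -0.019 (without mouse 194) and 0.10. Counts without length put the WT sedentary share of Scn8a at 30.2%, Scn1a at 20.7%, Cacna1a at 36.6%, Cacna1g at 16.5% and Cacna1e at 19.3%, and the canonical length put Scn2a at 51.9%, Scn1a at 23.0%, Cacna1a at 37.4% and Cacna1g at 18.3%. Apart from the settings themselves, the cause of these changes was not tested. No paired analysis was possible because the groups share no replicate numbers. The fit of 10 left 2 SCA1 sedentary mice, and Scn7a, Scn9a, Scn11a and Cacna1s had few counts in most libraries. Small differences in these genes were therefore not detectable.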
